A study of Mus musculus with 4 samples.

Results

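Genes of Wnt signalling, 10 in number, were followed in mouse embryonic fibroblasts that lacked or carried Med1, a subunit of the Mediator complex. They were 7 secreted antagonists (Sfrp1, Sfrp2, Sfrp4, Frzb, Dkk2, Dkk3 and Wif1) and 3 genes read as signs of pathway activity (Axin2, Lef1 and Tcf7). The members were all probe sets that the array annotation assigned to these 10 genes, 15 of the 22626 probe sets besides controls, for 9 of the 12393 genes named on the array. Sfrp1 had 4 probe sets, Frzb, Dkk3 and Axin2 had 2 each, and Sfrp2, Sfrp4, Dkk2, Wif1 and Lef1 had 1. No probe set was named for Tcf7 in the annotation used, and the expression of Tcf7 is not analysed here. The genes lie on several chromosomes, with Sfrp2, Lef1 and Dkk2 on chromosome 3 and Axin2 and Tcf7 on chromosome 11.

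Wnt proteins are secreted signals that bind Frizzled receptors together with the co-receptors Lrp5 and Lrp6. Binding stops a cytoplasmic complex built on Axin and Apc from marking beta-catenin for destruction, and beta-catenin then joins LEF/TCF proteins on DNA. Secreted antagonists act outside the cell: secreted frizzled-related proteins and Wif1 bind Wnt ligands, whereas Dickkopf proteins of the classical kind bind the Lrp co-receptors. Mesenchymal cells are a known source of these antagonists. Axin2 is a widely used readout, since the pathway induces it and its product restrains the pathway.

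Both groups were fibroblasts from E10.0 embryos on the C57BL/6J strain, with the genotypes Med1+/+ p53-/- and Med1-/- p53-/-, so p53 was missing in controls too. The labels trace both genotypes to 1 cross and do not say how many embryos, cell lines or separate cultures the arrays stand for. Cells were grown in DMEM with 10% fetal calf serum, and 50 ng of total RNA was labelled with biotin for each array, with 2 arrays per genotype. The loss of Med1 and any other difference between the founding embryos or cultures cannot be told apart. The p-values rest on the spread of these arrays alone, and that spread may be technical.

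The deposited signals differed in scale, with array medians from 76.25 to 106.65 in Med1+/+ and from 36.1 to 51.4 in Med1-/-, and they were quantile normalized before testing. Precision is limited by the 4 arrays. The Med1 probe set 1448708_at read 664.6 and 885.6 with Med1 present against 25.4 and 40.2 in the knockout, in the direction of the labels. The fibroblast markers Vim, Col1a2 and Fn1 were bright on all arrays, with Vim between 12340 and 14451, but others were not. Pdgfra read 893.9 and 1246.6 with Med1, against 84.9 and 57.6 without, and Prrx1 2619.6 and 3662.5 against 199.9 and 301.3. Lum lay between 10.8 and 17.2 on all arrays. In the other direction, Col1a1 read 1366.3 and 2225.2 with Med1, against 3722.7 and 6043.6 without. The blood marker Ptprc lay between 0.1 and 7.2. The genotypes differed widely: of 13576 probe sets tested, 36.3% were called higher and 35.3% lower in Med1-/- cells, 71.6% in all (adjusted p under 0.05, limma with Benjamini-Hochberg adjustment). Of the calls 49.3% were lower, against 94.8% with no scaling of the deposited values, 84.3% with arrays set equal on hybridisation controls and 98.6% on Bacillus subtilis controls. Any single call is therefore read against a background in which most probe sets were called.

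The promoters of Sfrp2, Dkk2 and Axin2 are shown because Sfrp2 and Dkk2 had the largest differences among the antagonists at the pseudocount used and Axin2 is the readout with the brightest probe set. Each is a RefSeq window of 300 bases around an annotated start on the plus strand of GRCm38.p6. They lie at chr3:83766071-83766370, chr3:132085042-132085341 and chr11:108920099-108920398. The annotated genes Sfrp2 and Axin2 begin upstream of their windows, at 83765750 and 108917828, so these windows do not hold the outermost start. Capitals mark TATAAA and GGGCGG, the latter known as a GC box, on either strand.
Sfrp2: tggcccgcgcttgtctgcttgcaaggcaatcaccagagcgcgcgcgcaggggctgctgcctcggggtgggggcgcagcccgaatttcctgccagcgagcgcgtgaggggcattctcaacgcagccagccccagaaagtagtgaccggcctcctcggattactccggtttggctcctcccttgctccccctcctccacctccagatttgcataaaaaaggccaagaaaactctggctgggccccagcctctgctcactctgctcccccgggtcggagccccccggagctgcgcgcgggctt
Dkk2: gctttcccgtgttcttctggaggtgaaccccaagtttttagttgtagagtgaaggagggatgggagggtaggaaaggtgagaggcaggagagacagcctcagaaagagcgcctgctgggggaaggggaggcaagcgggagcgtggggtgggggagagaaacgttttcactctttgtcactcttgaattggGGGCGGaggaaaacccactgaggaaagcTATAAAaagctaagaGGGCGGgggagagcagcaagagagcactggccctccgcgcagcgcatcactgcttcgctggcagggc
Axin2: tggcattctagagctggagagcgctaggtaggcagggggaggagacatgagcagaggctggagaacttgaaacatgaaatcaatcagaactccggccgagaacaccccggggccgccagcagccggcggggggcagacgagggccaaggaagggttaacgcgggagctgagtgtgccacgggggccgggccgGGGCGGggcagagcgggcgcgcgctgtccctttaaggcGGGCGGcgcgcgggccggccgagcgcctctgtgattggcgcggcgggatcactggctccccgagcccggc
Dkk2 held 1 TATAAA, at position 219 of its window, and 2 GC boxes. Axin2 held 2 GC boxes and no TATAAA, and Sfrp2 had neither.

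Of the 10 genes, 7 had RefSeq windows, 11 windows in all. Sfrp1, Sfrp4 and Dkk3 had none, so the counts do not cover these genes, each called lower on 1 probe set. Lef1 and Tcf7 gave several windows each, and some of the Lef1 windows overlapped, so the 11 do not stand for separate genes. None of the 11 held CTTTGAT or CTTTGAA, a core that LEF/TCF proteins are known to bind, on either strand, against 8.65% of all 32851 windows. TATAAA was in 4 of the 11 and 13.6% of all, GGGCGG in 9 and 35.7%, and AGGTCA, a known core of nuclear receptor sites, in 2 and 16.3%. All motifs but the LEF/TCF core were chosen after the values were seen. The windows of Sfrp2 and Axin2 were rich in CG dinucleotides, with 22 and 31 against a median of 7 over all windows, and that of Dkk2 held 11.

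Signals of the Wnt antagonists were mostly lower in Med1-/- cells. The test took in probe sets whose mean over all arrays was above the 40th percentile, a log2 value of 4.99. Of the 15 probe sets 6 passed that filter, and 4 of these were called lower (Sfrp1, Sfrp2, Sfrp4 and Dkk3, 1 probe set each) and 0 higher. Among all 13576 probe sets tested 35.3% were called lower and 36.3% higher. All 6 log2 changes of the members tested were below 0. With 1 probe set per gene, the brightest, 2 of the 4 members tested were called lower (Sfrp2 and Sfrp4), against 36.2% of all features. The other 9 were too dim on average, including that of Dkk2, which gave a clear signal in Med1+/+ cells alone. With no filter 7 of the 15 were called lower and 0 higher, against 21.8% lower and 21.4% higher among all 22626 probe sets (limma with Benjamini-Hochberg adjustment). At an unadjusted p under 0.05 they were 7 lower and 1 higher, the latter a dim Axin2 probe set. Both normalized Med1-/- values lay below both Med1+/+ values for 9 of the 15, against 34.2% of all probe sets. The median log2 change was -0.81 over the 15 and 0.05 over all probe sets. In RNA from whole cultures, fewer cells expressing a gene and less RNA per cell cannot be told apart.

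**Figure D1:**
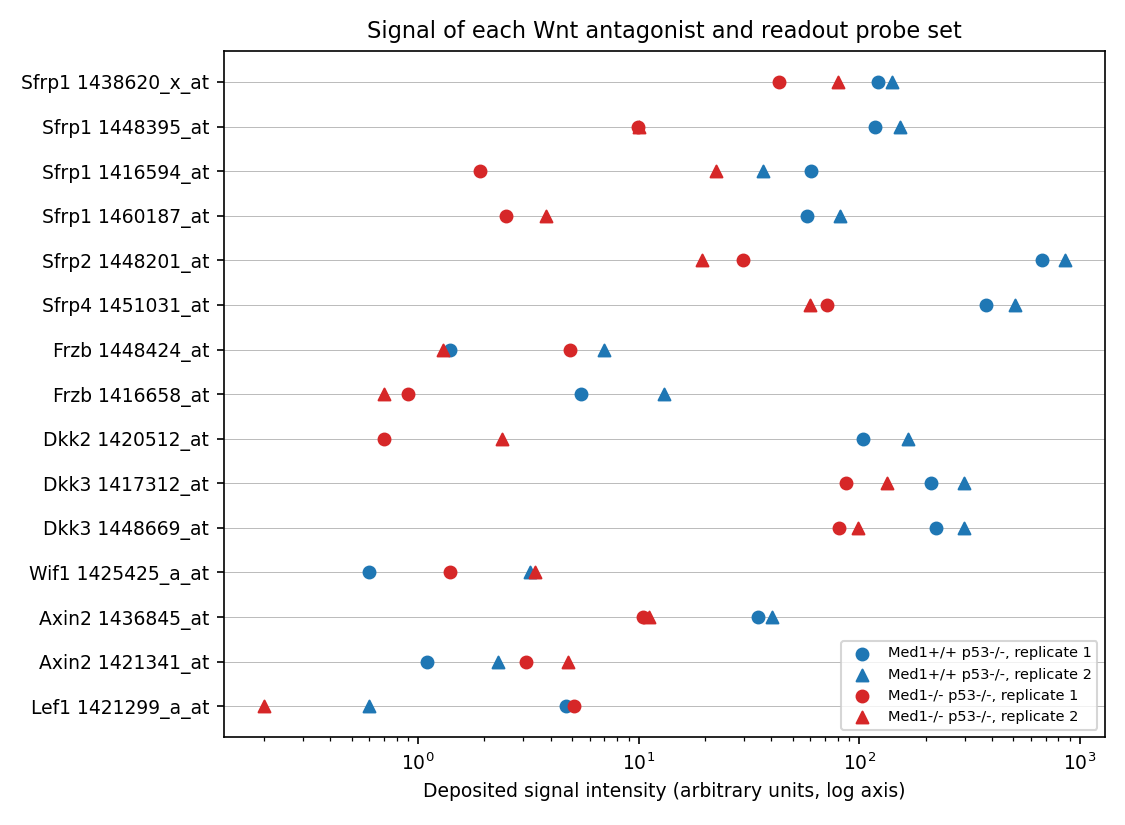
Deposited signal intensity (log axis) of the 15 probe sets on the 2 Med1+/+ arrays (blue) and the 2 Med1-/- arrays (red), circles for replicate 1 and triangles for replicate 2. Sfrp2 lies at 674.4 and 853.7 in Med1+/+ and at 29.8 and 19.4 in Med1-/- cells, and Dkk2 at 103.7 and 166.6 against 0.7 and 2.4.

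Sfrp2, a secreted frizzled-related protein gene of mesenchyme, fell most among the members tested. It read 674.4 and 853.7 in the deposited signals of Med1+/+ cells, against 29.8 and 19.4 without Med1. Each Med1-/- value was far below each Med1+/+ value. On the normalized log2 scale the mean went from 9.25 ± 0.12 to 5.30 ± 0.79 (SD, n = 2 per genotype). The log2 change was -3.95 (SE 0.34, 95% interval -4.78 to -3.11; adjusted p = 0.000166, limma with Benjamini-Hochberg adjustment), or 15.4-fold lower. Of the 13576 probe sets tested 29 had a larger fall.

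Sfrp4, a related gene, read 373.7 and 507.2 with Med1, against 71.2 and 60 without. The genotypes did not overlap. The log2 change was -1.73 (SE 0.24, 95% interval -2.32 to -1.15; adjusted p = 0.000911, limma with Benjamini-Hochberg adjustment), 3.32-fold lower, and 640 tested probe sets had a larger fall.

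Sfrp1, whose product also binds Wnt ligands through a Frizzled-like domain, gave different answers on its 4 probe sets. On 1448395_at the signals were 118.3 and 152.2 with Med1, against 9.9 and 10.0 without. This probe set fell by 2.68 on the log2 scale (SE 0.28, 95% interval -3.364 to -2.001; adjusted p = 0.000302, limma with Benjamini-Hochberg adjustment), 6.42-fold, and without either Med1+/+ array its mean dropped below the filter. On 1460187_at, too dim on average for the main test, the signals were 57.9 and 81.6 against 2.5 and 3.8, a log2 difference of -3.12, and it was called with no filter (adjusted p = 0.00173, limma). Both probe sets separated the genotypes by a wide gap.

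The other Sfrp1 probe sets were less clear. On 1416594_at the signals were 60.6 and 36.5 with Med1, against 1.9 and 22.4 without. The Med1-/- arrays differed widely from each other and the normalized values overlapped. The log2 difference of -1.63 did not pass with no filter (adjusted p = 0.217, limma). On 1438620_x_at, the brightest on average, the signals were 121.1 and 140.6 against 43.1 and 80.1, but the normalized values of 109.1 and 89.5 against 80.3 and 104.0 overlapped. Its log2 change of -0.11 (95% interval -0.61 to 0.39; adjusted p = 0.646, limma) had an interval apart from that of 1448395_at. Identifiers ending in _x_at mark probe sets that can match transcripts of other genes. With 1 probe set per gene, the brightest, Sfrp1 was thus represented by 1438620_x_at and was not called.

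Frzb, also known as Sfrp3 and first described in cartilage, was dim on all arrays. It read 5.5 and 13.0 with Med1, against 0.9 and 0.7 without, on 1416658_at, a log2 difference of -1.59 that was called with no filter (adjusted p = 0.0433, limma). On 1448424_at they were 1.4 and 7.0 against 4.9 and 1.3, so the genotypes overlapped and the log2 difference was 0.28. The probe sets of Frzb therefore did not show the same direction, at signals where differences are inexact.

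Dkk2 is a Dickkopf protein gene whose product binds Lrp5 and Lrp6 and can block or, in some settings, activate signalling. The gene lay in the middle of the arrays with Med1 and near their bottom without Med1. It read 103.7 and 166.6 with Med1, against 0.7 and 2.4 without. Only the Med1+/+ cells gave a clear signal. It was called lower with no filter (adjusted p = 0.000521, limma with Benjamini-Hochberg adjustment), also under the 5 other scalings run with no filter. Without Med1-/- replicate 1 it passed the filter through its higher Med1+/+ signals, with a log2 change of -4.51, which is no further support. The Med1-/- signals were about as low as the pseudocount of 1.85 added before the logarithm, which sets the size of the log2 difference. It was -4.81 as plotted, -5.21 with a pseudocount of 1 and -2.69 with 16. Dkk2 differed more than Sfrp2 at the first and second of these and less at the last, where Sfrp2 was at -3.51.

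Dkk3, a divergent Dickkopf family gene expressed by many mesenchymal cells, changed little relative to other genes. The signals on 1448669_at were 223.1 and 299.8 with Med1, against 81.2 and 98.8 without, and on 1417312_at 212.1 and 298.7 against 87.0 and 133.8. Both probe sets were lower on each Med1-/- array, before and after normalization. The log2 change was -0.51 on 1448669_at (SE 0.15, 95% interval -0.87 to -0.16; adjusted p = 0.0192, limma) and -0.22 on 1417312_at (95% interval -0.54 to 0.10; adjusted p = 0.171, limma). The call on 1448669_at was lost without Med1+/+ replicate 1 (adjusted p = 0.0975), Med1+/+ replicate 2 (adjusted p = 0.0714) or Med1-/- replicate 2 (adjusted p = 0.0704, limma). Larger falls on 4596 of the tested probe sets put this change among ordinary ones here.

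Wif1, which encodes a Wnt-binding protein with a WIF domain, was near the bottom of every array. Its signals of 0.6 and 3.2 with Med1 overlapped those of 1.4 and 3.4 without. No direction can be read at this level.

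**Figure D2:**
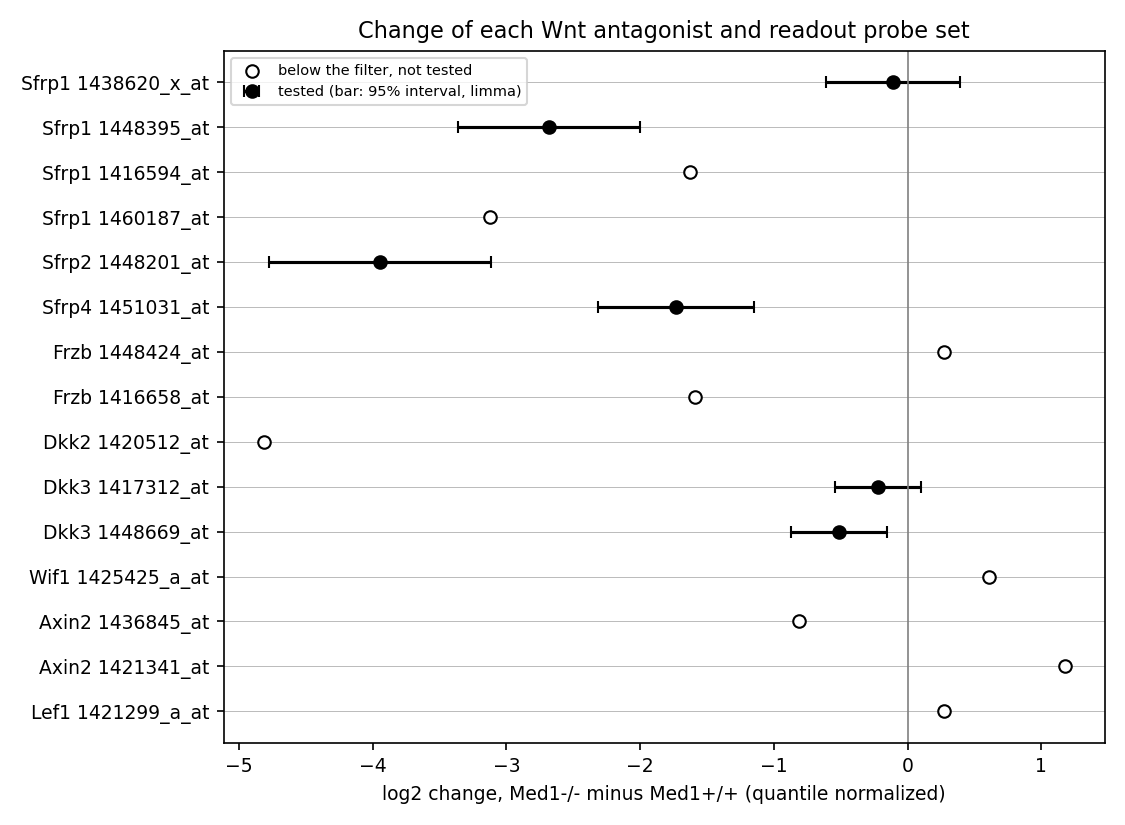
Log2 change from Med1+/+ to Med1-/- for the 15 probe sets after quantile normalization. Filled points were tested and carry 95% intervals from limma, open points were below the filter: Sfrp2 (-3.95) and Dkk2 (-4.81) lie farthest to the left.

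The readouts of the pathway were dim and none of their 3 probe sets passed the filter. Axin2, the scaffold protein gene of the destruction complex, read 34.9 and 40.3 with Med1, against 10.5 and 11.1 without, on 1436845_at. The genotypes did not overlap, yet after normalization the log2 difference was -0.81 and did not pass with no filter (adjusted p = 0.167, limma). On 1421341_at, at the lower end of the arrays, the signals were 1.1 and 2.3 against 3.1 and 4.8, the opposite direction, with a log2 difference of 1.17 (adjusted p = 0.0892 with no filter, limma). Thus Axin2 gave no single direction over its probe sets.

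Lef1, a DNA-binding partner of beta-catenin, read 4.7 and 0.6 with Med1, against 5.1 and 0.2 without. Its replicates differed from each other by more than the genotypes did. A change of Lef1 was not detectable at this signal.

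Ranks within an array do not depend on how arrays are scaled. Sfrp2 stood at percentiles 84.4 and 83.0 with Med1, against 47.5 and 37.2 without. Dkk2 went from percentiles 54.4 and 56.5 to 5.72 and 12.8, from the middle of the array to near its bottom. Sfrp4 stood at percentiles 75.45 and 74.98 against 59.7 and 52.0. Dkk3 moved less, from 66.7 and 65.9 to 61.8 and 59.2 on 1448669_at. By rank, 9 of the 15 probe sets were lower on both Med1-/- arrays, and 1421341_at of Axin2 was the only one higher on both. Quantile normalized values are set by these ranks, so this count repeats that of the normalized values by construction and is no further support. Among all probe sets 34.2% were lower in this way.

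**Figure D3:**
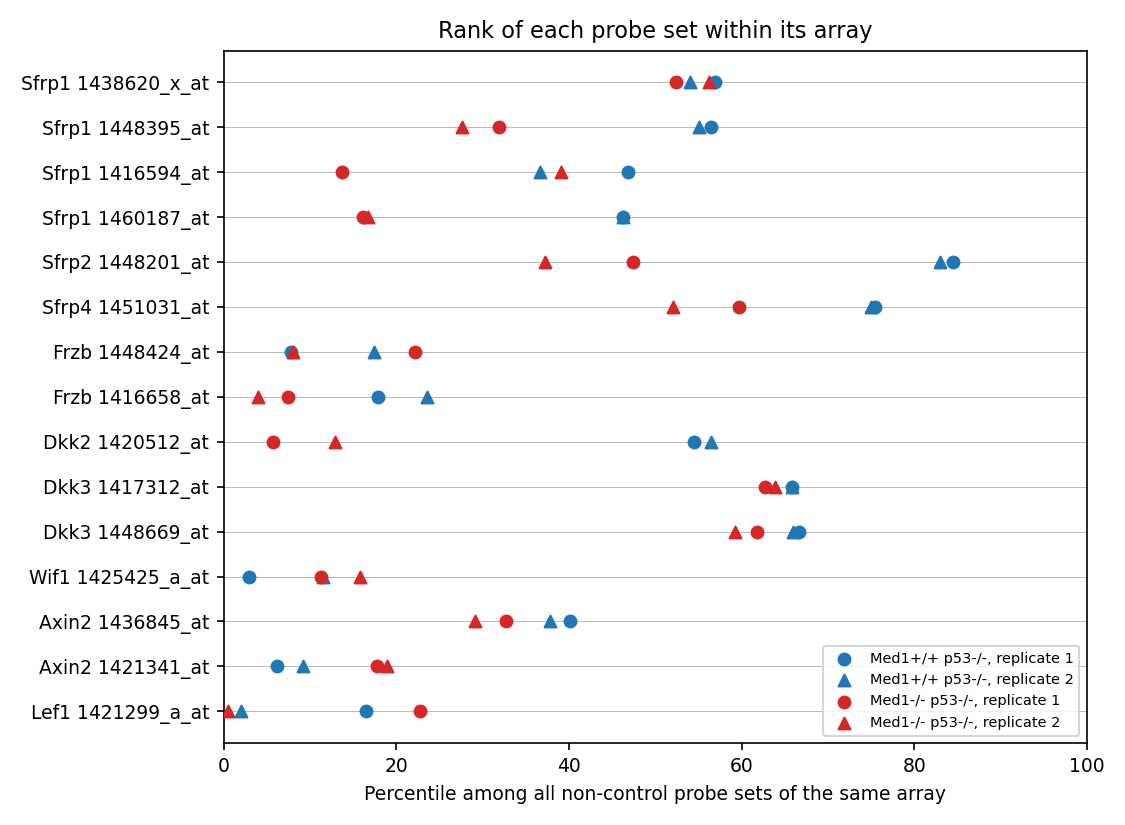
Percentile of each of the 15 probe sets among all non-control probe sets of the same array, Med1+/+ in blue and Med1-/- in red, circles for replicate 1 and triangles for replicate 2. Sfrp2, Sfrp4, Dkk2 and the Sfrp1 probe sets 1448395_at and 1460187_at are apart between genotypes, while Lef1, Wif1 and 1438620_x_at of Sfrp1 overlap.

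The size of each change depended on the scaling of the arrays, as did the median of all probe sets. With no filter, that median was 0.05 after quantile normalization and -0.65 in the values as deposited. It was 0.23 with medians set equal, 0.08 with 75th percentiles set equal, -0.66 after scaling on hybridisation controls and -1.41 on Bacillus subtilis controls. Over these 6 scalings the log2 change of Sfrp2 ran from -5.71 to -3.84, that of Sfrp4 from -3.56 to -1.65 and that of Dkk2 from -6.04 to -4.62. Relative to the median of all probe sets they ran from -4.30 to -4.00, from -2.15 to -1.79 and from -4.87 to -4.63. All scalings but quantile normalization multiply an array by 1 constant, so the relative values are close to each other by construction and their agreement is no further support.

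Other members changed their call or their sign with the scaling. The Sfrp1 probe set 1438620_x_at ran from -1.98 to -0.08 and 1417312_at of Dkk3 from -2.07 to -0.15, with no filter. Both were called lower after scaling on either set of controls. In the values as deposited 1417312_at was called (adjusted p = 0.037 with no filter, limma), whereas 1438620_x_at was called with the filter (adjusted p = 0.0331) and not without it (adjusted p = 0.092, limma). The log2 difference changed sign over the 6 scalings for 1448424_at of Frzb (-0.66 to 0.50), Wif1 (-0.18 to 0.78) and Lef1 (-0.46 to 0.42). Of the Axin2 probe sets 1436845_at was below 0 (-2.43 to -0.67) and 1421341_at above 0 (0.23 to 1.34) under all of them. With no filter 1436845_at was called lower in the values as deposited (adjusted p = 0.0414), with hybridisation controls (adjusted p = 0.0148) and with Bacillus subtilis controls (adjusted p = 0.002, limma), and not under the other scalings. The call of 1416658_at of Frzb with no filter was lost with medians (adjusted p = 0.0669) or 75th percentiles set equal (adjusted p = 0.0539, limma). The Sfrp1 probe set 1416594_at was called lower as deposited (adjusted p = 0.00189) and with Bacillus subtilis controls (adjusted p = 0.0115, limma), also with no filter. With no filter, between 6 and 11 of the 15 probe sets were called lower and 0 higher under the 6 scalings. The 11 came with Bacillus subtilis controls, where 88.1% of all 13576 probe sets tested were called lower and 172 higher. Hybridisation controls gave 10, beside 61.0% of all tested, and the values as deposited 10, beside 44.0%. Medians or 75th percentiles set equal gave 6, beside 30.1% and 35.3%. These shares come from fits with the filter, so they are not exact counterparts.

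**Figure D4:**
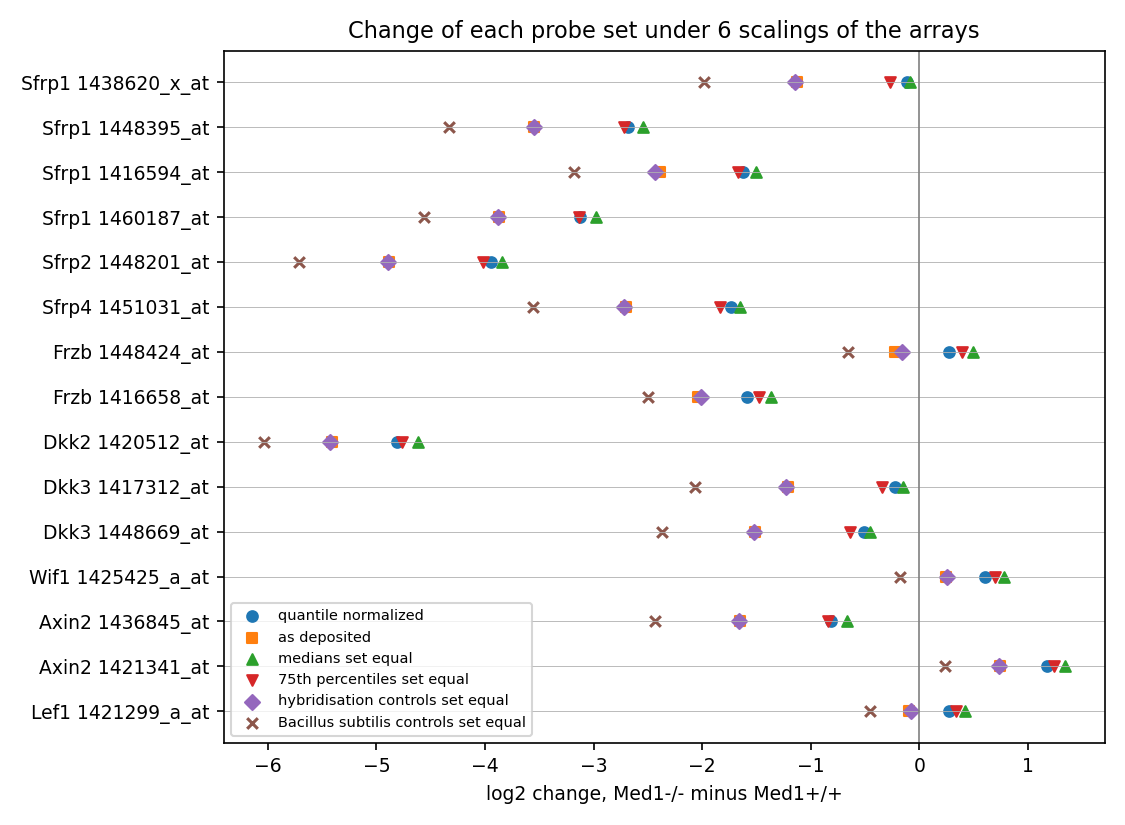
Log2 change from Med1+/+ to Med1-/- of the 15 probe sets under 6 scalings of the arrays, 1 symbol per scaling and no filter. Scaling on the Bacillus subtilis controls shifts every probe set to the left, and Sfrp2, Sfrp4, Dkk2 and 1448395_at of Sfrp1 stay below -1.6 under all 6.

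Outside the 10 genes, Wnt pathway genes were more often higher than lower after quantile normalization. Of 115 genes from 6 lists that the table named, 70 were tested on their brightest probe set, and 41 were called higher and 19 lower. With 1 probe set per gene, 39.1% of all features tested were called higher and 36.2% lower. The median log2 change was 0.77 over the 70 genes and 0.04 over all probe sets tested. In the values as deposited 3 were called higher and 21 lower, after scaling on hybridisation controls 19, with 30 lower, and on the Bacillus subtilis controls 1, with 57 lower. Relative to the median of all tested probe sets, that of the 70 genes was 0.74 after quantile normalization; scalings by 1 constant per array barely move this value by construction. These are descriptions of the lists with no test of the lists themselves.

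Ligand and secretion genes had 4 higher and 2 lower of 9 tested. Wnt11, a ligand linked to non-canonical signalling, rose by 2.39 on the log2 scale and Rspo1, whose product amplifies Wnt signals, by 2.11 (adjusted p = 0.0001 and 0.00024, limma). Porcn, the enzyme that acylates Wnt proteins, rose by 1.84, and Wls, which carries them to the cell surface, fell by 1.11. Of 10 receptor genes tested 6 rose and 1 fell, with the Frizzled genes Fzd2 (1.52) and Fzd8 (1.35) and the kinase-like receptor gene Ptk7 (1.42) higher. The co-receptor gene Lrp6, to which Dkk2 binds, fell by 1.01, from signals of 326.9 and 458.5 to 85.5 and 112.5 (adjusted p = 0.000618, limma).

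The list of other antagonists had 17 genes on the array, of which 13 were not tested. Of the 4 tested 3 rose and 1 fell. Gpc4, a cell-surface proteoglycan gene, rose by 1.83 and stood on the list although it is not a classical Wnt antagonist. Apcdd1, a membrane inhibitor gene, rose by 1.32. Igfbp4, which encodes a growth factor binding protein also described as a Wnt antagonist, fell by 0.51. Tpbg, a membrane glycoprotein gene, rose by 0.98.

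Cytoplasmic transducers had 10 higher and 7 lower of 18 tested. Ctnnbip1, an inhibitor of beta-catenin binding to TCF proteins, rose by 1.62 and the Dishevelled gene Dvl1 by 1.45, whereas the tankyrase gene Tnks2, whose product marks Axin for breakdown, fell by 1.55. Nuclear factors had 12 higher and 3 lower of 17. Among these were the LEF/TCF family gene Tcf7l1 (1.33), with signals of 291.9 and 375.6 with Med1, against 381.0 and 559.1 without, and the beta-catenin cofactor genes Bcl9l (1.38) and Pygo2 (1.29). Tcf7l1 was thus clearly measured where Lef1 was not.

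Genes listed as Wnt targets moved both ways, with 7 higher and 5 lower of 13 tested. Vcan, the versican proteoglycan gene, fell by 2.39, and Ccn5, formerly Wisp2, by 1.58. Fosl1, an AP-1 factor gene, rose by 1.48. Tcf4 (-1.72) also stood on the list, although this symbol names an E protein gene and not the LEF/TCF factor once called by that name.

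**Figure D5:**
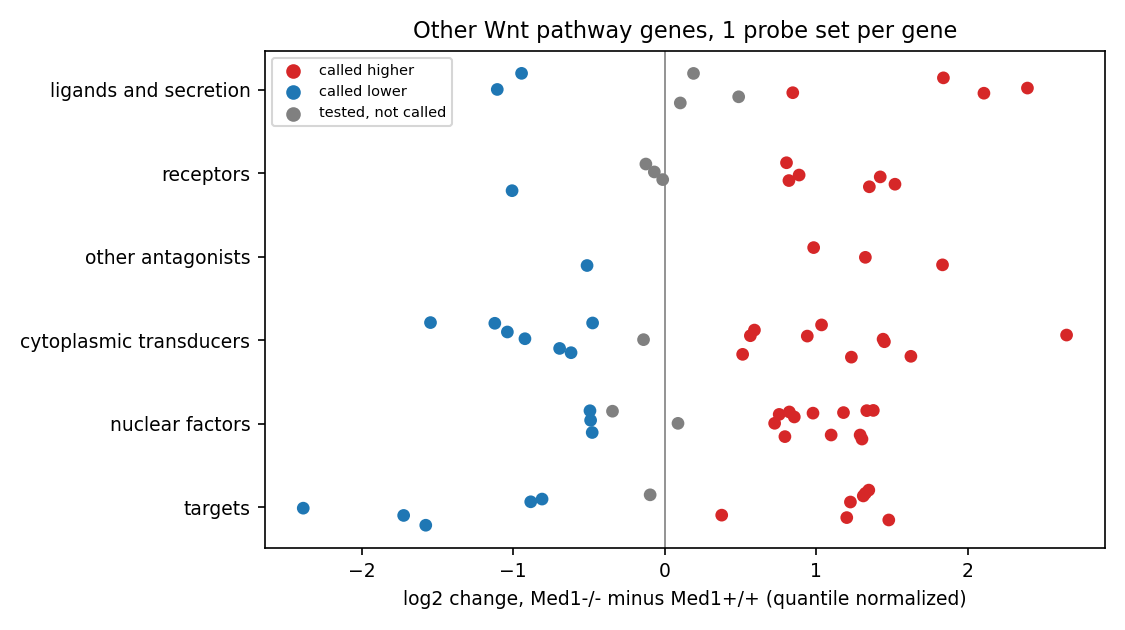
Log2 change from Med1+/+ to Med1-/- of the Wnt pathway genes tested outside the 10 members, 1 point per gene on its brightest probe set, by role. Red points were called higher, blue points lower and grey points neither; receptors and nuclear factors lie mostly to the right of 0, with 6 of 10 and 12 of 17 called higher.

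Markers of other cell types moved beside the antagonists. Of 12 epithelial markers 7 were tested, of which 5 fell and 1 rose. Cdh1 fell 22.5-fold and Krt18 21.8-fold, while Krt19 rose 3.05-fold and held most of the summed Med1-/- signal. The summed normalized signal of the list was 5125 to 5280 in Med1+/+ and 2438 to 2809 in Med1-/- cells. Smooth muscle markers had 6 of 7 tested and all 6 higher, with a summed signal of 13724 to 14117 against 29825 to 31642. Fibroblast and mesenchyme markers had 4 higher and 4 lower of 12 tested. Col1a1, Col3a1, Thy1 and Twist2 were higher, and Pdgfra, Prrx1, S100a4 and Dcn lower. The summed signals of that list were 49164 to 53080 in Med1+/+ and 52539 to 55690 in Med1-/- cells. Endothelial, blood, skeletal muscle and neural markers were mostly below the filter, with 6 of 8, 9 of 10, 6 of 7 and 4 of 6. Of those tested 1 of 2 endothelial, 0 of 1 blood, 1 of 1 skeletal muscle and 2 of 2 neural markers rose, and none fell. The skeletal muscle sum was 119 to 121 with Med1, against 1417 to 1577 without. Most of the latter was Acta1, which rose 20.2-fold, to normalized values of 1344 and 1511.5. Of the dim markers on that list Myod1, Myog and Myf5 were higher on both Med1-/- arrays, Mylpf was lower, and Tnnt1 and Ckm overlapped. The neural sum was 267 to 278 with Med1, against 936 to 982 without, with Nes 4.21-fold and Tubb3 3.57-fold higher. Summed signals were 127 to 130 against 178 to 231 for endothelial and 121 to 148 against 163 to 175 for blood markers. The signal of Pecam1, an endothelial marker, was 18.0 and 3.6 with Med1, against 1.3 and 2.7 without, and no marker on these lists was listed at 0. The part of these markers and their cells in the lower antagonist signals was not tested.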

How the data were processed

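RNA labelled with an Affymetrix kit was measured on 4 mouse arrays. The deposited values are linear signal intensities. Probe summarisation, background correction and any scaling by the authors are steps not given in the sources used here. Before testing, the 64 control probe sets were left out and the other 22626 quantile normalized, because the 75th percentiles of the arrays differed. A pseudocount of 1.85, the 10th percentile, was added before log2, so fold changes of dim probe sets are understated. Testing left out each probe set whose mean log2 value lay under the 40th percentile. This filter takes in a probe set bright in 1 genotype only if its mean is high enough. The genotypes were compared in R 4.3.3 with limma 3.58.1 (lmFit and eBayes, intensity trend, two-sided, Benjamini-Hochberg adjustment over 13576 probe sets, threshold 0.05). The procedure was tested on simulated data in which few probe sets changed. Of simulated log2 changes of 0.5, 1 and 2, 46.3%, 88.1% and 89.4% were recovered. With few changed probe sets, the simulation cannot check the normalization of data in which most were called.

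Each probe set was tested, not each gene. Symbols came from the platform annotation, checked through Entrez identifiers against RefSeq (GRCm38.p6): 1 symbol was given for 20380 probe sets, several for 691 and none for 1555; only the first kind could be members. Of the genes in the pathway lists 20 were not named by the annotation. The text names the members, Med1 and, in each pathway list, some of the 4 called genes with the largest change; any other gene was chosen after its values were seen. The members and lists were chosen with earlier results of these data known. Alternatives varied the scaling, filter, pseudocount, variance model, replicate block, probe sets and arrays; scalings without the filter were added after the data were seen. Figures used matplotlib 3.10.9 in Python 3.11.15.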

Additional observations from a re-analysis of the deposited data

How the results depend on the processing

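Quantile normalization with the filter called 9718 probe sets, 4923 higher and 4795 lower; the values as deposited gave a separate total of 6298, 326 higher and 5972 lower. Scaling on hybridisation controls called 1540 higher and 8280 lower, and on Bacillus subtilis controls 172 and 11958. Of the pathway genes, 3 were called higher and 21 lower in the values as deposited, 19 higher and 30 lower with hybridisation controls, and 1 and 57 with Bacillus subtilis controls, against 41 and 19. The members called lower numbered 7 of 15 with no filter and 2 of 4 tested with 1 probe set per gene, against 4 of 6. Among all features tested in these fits 21.8%, 36.2% and 35.3% were called lower. Leaving out 1 array gave 2 to 5, with 5 without Med1-/- replicate 1, where Dkk2 passed the filter, 3 without Med1-/- replicate 2, and 2 when either Med1+/+ array was left out, since the Sfrp1 probe set then fell below the filter and Dkk3 lost its call. Without _s_at, _x_at and _a_at probe sets 6414 were called of 8645 tested, 3154 higher. No change called among the members reversed its sign in the alternatives run, and the calls of Sfrp2 and Sfrp4 were kept in all 17. The labels do not say that equal replicate numbers mark shared material; deviations of same-numbered arrays correlated at 0.298 over probe sets. With the replicate block 10815 probe sets were called, 4 members lower and 0 higher as before. The causes of these shifts were not tested. No detection calls were used, so dim signals have no stated floor.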

Other observations

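Further secreted Wnt modulators below the filter had low signals in Med1-/- cells. They were chosen after their values were seen, and they were not tested. Rspo2, whose product amplifies Wnt signals like that of Rspo1, had deposited signals of 88.9 and 160.6 in Med1+/+ and of 4.0 and 9.9 in Med1-/- cells, whereas Rspo1 rose. Dkk1, the classical Dickkopf inhibitor gene, had 16.6 and 26.5 against 1.9 and 1.2. Sostdc1, which encodes an antagonist related to sclerostin, had 14.9 and 19.0 against 0.7 and 1.1. In each of the 3 genes both Med1-/- values lay below both Med1+/+ values, also after normalization, as for 34.2% of all probe sets. Other genes of the lists below the filter went the other way. Wnt2 had 1.3 and 4.8 with Med1, against 11.1 and 12.2 without, and Kremen1 had 3.5 and 14.8 against 18 and 20.5.

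Beta-catenin and genes of its destruction machinery, also named after their values were seen, did not move one way. Ctnnb1, the beta-catenin gene, fell by 1.12 on the log2 scale (adjusted p = 0.000345, limma) and Apc by 1.04 (adjusted p = 0.000336, limma). Axin1, by contrast, rose by 1.44 (adjusted p = 0.000134, limma) and Gsk3a by 0.94 (adjusted p = 0.00209, limma). In the deposited signals Ctnnb1 went from 7246 and 8394 to 2344 and 2780, and Axin1 from 298.5 and 427.1 to 470.9 and 619.0. The deposited signals of Gsk3a overlapped, at 578.6 and 603.6 with Med1, against 554.4 and 758.1 without.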
